A study of Mus musculus with 4 samples.

Results

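The genes described here encode ectonucleotidases, the enzymes that cut nucleotides outside the cell, together with adenosine deaminase and adenosine receptors, in mouse skeletal stem cells with or without Mmp14. The set names 10 genes (Entpd1, Entpd2, Entpd3, Entpd5, Nt5e, Enpp1, Enpp3, Ada, Adora2a and Adora2b) and was chosen from the measured difference between knockout and wild type in 2 of them, Entpd3 and Nt5e, which were higher in knockout. Of the 10, 6 had a probe set annotated with exactly 1 gene symbol: Entpd1, Entpd3, Entpd5, Nt5e, Enpp3 and Ada. Entpd2 was listed only on a probe set with several symbols and was not used, and Enpp1, Adora2a and Adora2b were not analysed here. The 6 genes were among 22180 genes measured and 12708 tested, and all 6 passed the filter on dim genes. No adenosine receptor of the set therefore has a value, and the results concern its enzymes.

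Extracellular ATP is a danger and mechanical signal that is taken down in steps. Ectonucleoside triphosphate diphosphohydrolases (the Entpd family) remove phosphates from ATP and ADP, pyrophosphatases of the Enpp family cut ATP to AMP and pyrophosphate, the GPI-anchored 5′-nucleotidase CD73 (Nt5e) turns AMP into adenosine, and adenosine deaminase (Ada) turns adenosine into inosine. Adenosine acts on G protein-coupled receptors that raise or lower cyclic AMP, and in bone the pyrophosphate made on the way restrains mineral deposition, while CD73 is a customary surface marker of cultured mesenchymal stromal cells.

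The cells came from mice 4 to 6 weeks old, either Mmp14+/+ (wild type, 2 arrays) or Mmp14-/- (knockout, 2 arrays), and both groups had spent 48 h embedded in 3D collagen gel before RNA was taken for Affymetrix arrays. The arrays are numbered 1 and 2 in each group, as their replicates are, and values are given in that order. Mmp14 encodes MT1-MMP, a collagen-cutting protease anchored in the cell membrane. Nothing in the labels says whether the replicates were separate animals or cultures, so p-values measure the spread between these arrays, which may be technical. The labels also do not say which part of Mmp14 is missing, and the deletion was not described as limited to one cell type.

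Mmp14 read 8.77 and 8.83 log2 in wild type against 5.77 and 5.84 log2 in knockout, which left 12.6% of the wild-type intensity. Arrays correlated at 0.992 and 0.994 within the groups and at 0.970 to 0.975 between them, over the 12708 genes tested. All 11 skeletal stem and stromal markers were brighter than the filter on dim genes (a mean of 2.34 log2, the median of all probe sets), with summed linear intensities of 8997 and 9007 in wild type and of 9280 and 9056 in knockout. These sums are dominated by collagen genes. In limma 3 of the 11 markers were higher in knockout, Pdgfra (1.77), the chemokine gene Cxcl12 (1.81) and the surface marker Cd200 (1.46). The leptin receptor gene Lepr was lower (−2.26) and 7 did not pass. The share called was 36.4%, against 11.3% of all genes tested. At an unadjusted p of 0.05 in limma, 5 were higher and 2 lower. The groups did not overlap in 10 of the 11 (90.9%, against 57.8% of all genes tested). The part of these shifts in the results below was not tested. Of the markers of other cells, none of the 6 measured lymphocyte or the 7 mast cell and basophil genes passed that filter, and 1 of 7 endothelial genes did. Of 8 leukocyte markers 4 did (Cd14, Cd68, Csf1r and Lyz2) and 4, with the pan-leukocyte gene Ptprc, did not. None of these 4 was called in limma, and 1, Lyz2, was lower at an unadjusted p of 0.05 (−0.50). The inactive X gene Xist was at 8.45 and 8.48 log2 in wild type against 9.30 and 9.09 in knockout, and the Y-linked Eif2s3y at 6.18 and 5.79 against 5.19 and 5.40. The Y-linked Kdm5d (−0.42) and Uty (−0.25) were also lower in knockout but did not pass in limma, and the groups overlapped for Uty. The differences of Xist and Eif2s3y ran along the same 2 groups as every result given here. The part of sex in those results was not tested. In such bulk samples, fewer cells of a type and less RNA per cell cannot be told apart.

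Promoter sequences of the pair of genes that chose the set are shown because both genes were higher in the same arrays. They are RefSeq sequences of GRCm38.p6 that run from 250 bases before to 50 bases after the start of the gene, 5′ to 3′ on the gene's strand. Promoters of 9 of the 10 genes were listed. Both genes lie on chromosome 9, Entpd3 with its promoter at chr9:120539568-120539867 (plus strand) and Nt5e at chr9:88327359-88327658 (plus strand). Capitals mark the motifs searched on both strands.

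Entpd3 promoter: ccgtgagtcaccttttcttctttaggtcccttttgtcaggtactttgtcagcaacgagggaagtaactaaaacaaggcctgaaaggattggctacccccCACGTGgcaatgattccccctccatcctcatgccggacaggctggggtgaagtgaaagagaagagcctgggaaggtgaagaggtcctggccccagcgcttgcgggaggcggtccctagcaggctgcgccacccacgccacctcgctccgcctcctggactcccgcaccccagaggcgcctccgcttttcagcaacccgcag

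Nt5e promoter: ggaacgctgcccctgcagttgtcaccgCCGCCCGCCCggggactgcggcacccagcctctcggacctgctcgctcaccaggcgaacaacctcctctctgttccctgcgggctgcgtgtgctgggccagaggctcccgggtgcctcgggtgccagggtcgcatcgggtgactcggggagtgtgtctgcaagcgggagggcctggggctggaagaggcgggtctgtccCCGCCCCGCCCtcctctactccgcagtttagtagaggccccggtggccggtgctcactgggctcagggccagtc

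The motifs were GGAATG (bound by TEAD factors), TGACG (found in the cyclic AMP response element), ACGTG (the core of the hypoxia response element) and GGGCGG (the GC box). They are held by 14.7%, 20.8%, 19.6% and 35.7%, respectively, of the 32851 promoters of this length in the table. The Entpd3 promoter held ACGTG once on each strand, in overlapping positions from bases 100 and 101, and none of the other motifs. Both matches lie in the single stretch CACGTG, which reads the same on both strands. The Nt5e promoter held 4 GC boxes, in overlapping pairs from bases 28 and 32 and from bases 227 and 232, and none of the other motifs. The Nt5e window was 71% G or C with 23 CpG dinucleotides and that of Entpd3 60.3% with 15, against medians of 52.7% and 7 over the table. The Enpp3 promoter was poorer, at 40.7% and 5 CpG, and held none of the motifs, while the Ada promoter (68%) held 2 GC boxes. No searched motif stood in both printed promoters, and a match or its absence is a description of these letters alone.

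All differences below are knockout minus wild type in log2 intensity. Since the set was chosen from this very contrast, the differences and their standard errors are given as a description, without p-values, and so is the count past the threshold. Among the 6 measured genes 3 were higher in knockout (Entpd3, Nt5e and Enpp3), 1 was lower (Ada) and 2 (Entpd1 and Entpd5) did not pass, at an adjusted p of 0.05 in a limma fit over all genes. Over all genes tested 11.3% passed, 6.2% higher and 5.12% lower. The median difference of the 6 genes was 0.56, against a median near 0 (−0.0041) of all genes tested. Entpd3 and Nt5e, which chose the set by being higher, are among the 6, so this gap was partly fixed in advance. Each of the 6 was read by a single probe set, so no second measurement of any of them was at hand.

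**Figure D1:**
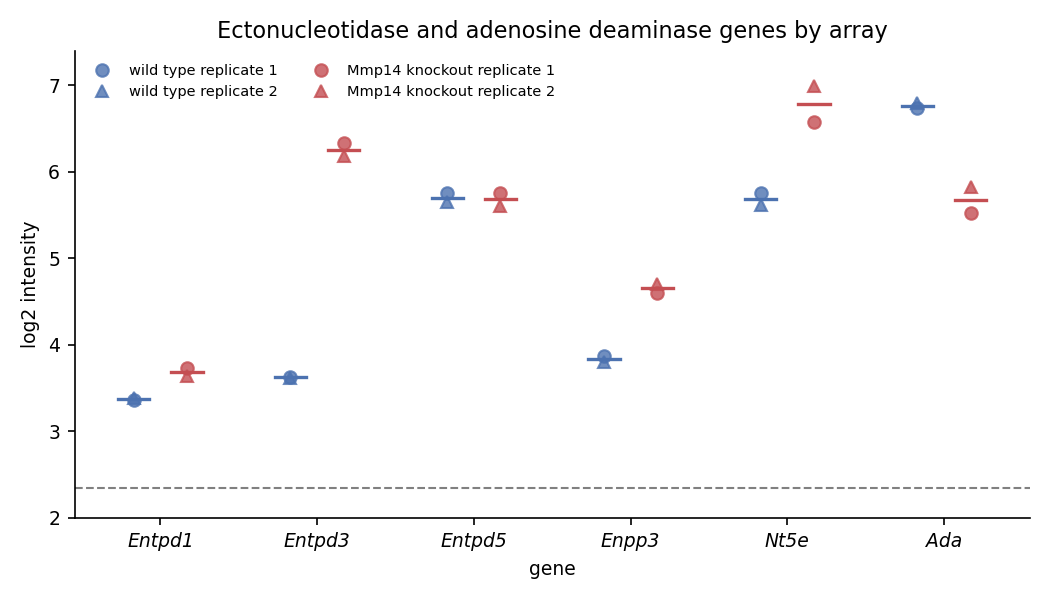
Log2 intensity (vertical axis) of the 6 measured genes in each array, with wild type in blue, Mmp14 knockout in red, circles for replicate 1, triangles for replicate 2 and short lines for group means; the dashed line is the filter on dim genes at 2.34. The largest gap is that of Entpd3, from 3.63 to 6.25, Ada alone lies clearly lower in knockout, and the groups overlap only for Entpd5.

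Entpd3 encodes an ectonucleotidase of the cell surface that removes phosphates from both ATP and ADP. It was measured at 3.63 and 3.62 log2 in wild type and at 6.33 and 6.18 in knockout. Both knockout arrays were far above both wild-type arrays, while replicates lay within 0.15 of each other. The difference was 2.63 log2 (SE 0.108, n = 2 in each group), or 6.17-fold, the 20th largest increase of the 12708 genes. The wild-type signal stood above the filter on dim genes.

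Entpd1, or CD39, is the family member best known on leukocytes and endothelium and also turns ATP and ADP into AMP. It read 3.36 and 3.38 log2 in wild type against 3.73 and 3.63 in knockout. The groups did not overlap, but the difference of 0.31 (SE 0.103) did not pass the threshold. Of the 4 tested leukocyte markers, Lyz2 (−0.50) and Cd14 (−0.26) were lower in knockout without overlap of the groups (50%, against 57.8% of all genes tested). The groups overlapped for Cd68 (−0.12) and Csf1r (0.0079). The summed intensities of 8 leukocyte markers (66.2 and 58.9 in wild type against 52.8 and 60.4 in knockout) also overlapped, with Cd68, the brightest, weighing most. The part of leukocytes in the values of Entpd1 was not tested.

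Entpd5 differs from the others in that its product is a nucleoside diphosphatase of the endoplasmic reticulum that acts on UDP during protein glycosylation. Its values were 5.75 and 5.65 log2 in wild type against 5.76 and 5.61 in knockout. The groups overlapped, with a difference of −0.02 (SE 0.112). Its sign turned to 0.03 without wild-type array 1 and to 0.06 without knockout array 2.

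Enpp3 encodes a membrane-bound pyrophosphatase and phosphodiesterase, familiar as a surface marker of activated basophils. It was at 3.87 and 3.80 log2 in wild type and at 4.60 and 4.70 in knockout. Both knockout arrays were above both wild-type arrays, by 0.82 log2 (SE 0.106, n = 2 in each group) or 1.76-fold. The 7 mast cell and basophil markers all had means under the filter on dim genes, with summed intensities of 27.5 and 29.2 in wild type and of 27.6 and 25.6 in knockout.

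Nt5e makes extracellular adenosine from the AMP that the Entpd and Enpp enzymes leave. It read 5.75 and 5.61 log2 in wild type against 6.57 and 6.99 in knockout. The groups did not overlap, although the knockout arrays lay 0.41 apart, the widest replicate gap of the 6 genes. The difference was 1.10 log2 (SE 0.161, n = 2 in each group), or 2.14-fold. It was 1.30 without knockout array 1 and 0.89 without knockout array 2.

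Ada, whose product removes adenosine by deamination, went the other way. It was at 6.74 and 6.79 log2 in wild type and at 5.53 and 5.83 in knockout. Both knockout arrays were below both wild-type arrays, by −1.08 log2 (SE 0.133, n = 2 in each group), which left 47.2% of the wild-type intensity. Ada was the 147th largest decrease of the genes tested.

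**Figure D2:**
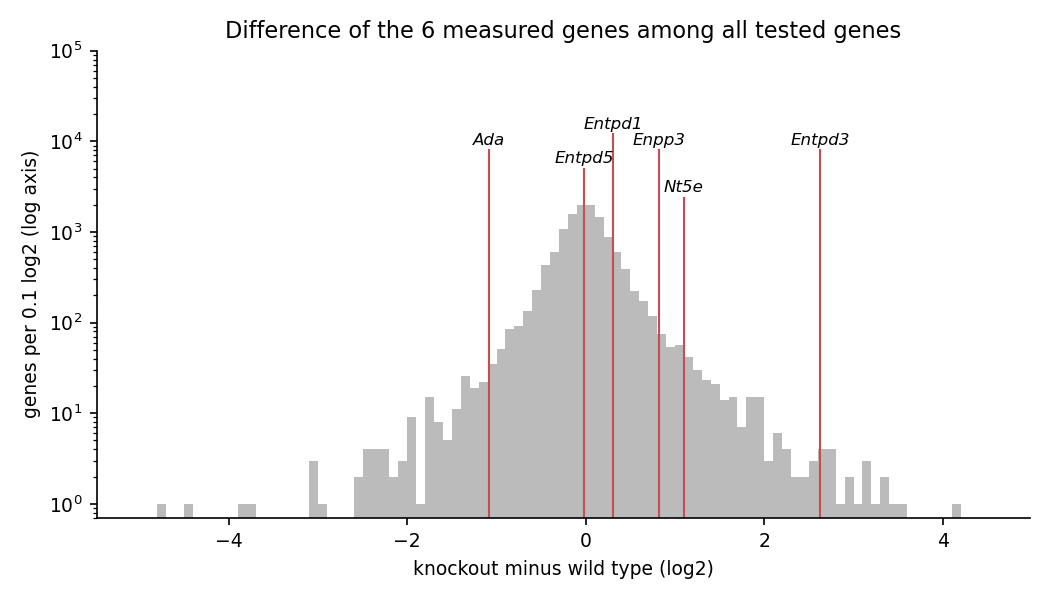
Number of tested genes (vertical log axis) by knockout minus wild type difference in log2 (horizontal axis, bins of 0.1), with red lines at the 6 measured genes. Entpd3 at 2.63 lies in the upper tail, Nt5e (1.10) and Enpp3 (0.82) on the upper flank, Ada (−1.08) on the lower flank, and Entpd1 and Entpd5 in the centre.

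By enzyme step, of the measured surface enzymes that form AMP, Entpd3 and Enpp3 were higher in knockout and Entpd1 did not pass. Nt5e, which forms adenosine, was higher, and Ada, which consumes it, was lower. Alpl, which is outside the set and whose product also cuts AMP, was lower in knockout (−1.76). Entpd3 and Nt5e are the genes that chose the set. In 5 of the 6 genes (83.3%) the groups did not overlap, against 57.8% of all genes tested. The 4 genes past the threshold were also past it in each fit that left out 1 array; there the remaining array of that group is assumed to vary like the other group, and the fits reuse the contrast that chose the set. In a fit of every probe set of the table, with or without a symbol and with no filter on dim genes, Entpd3 alone of them stayed past it. Without that filter but with 1 probe set per gene, all 4 stayed past it.

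**Figure D3:**
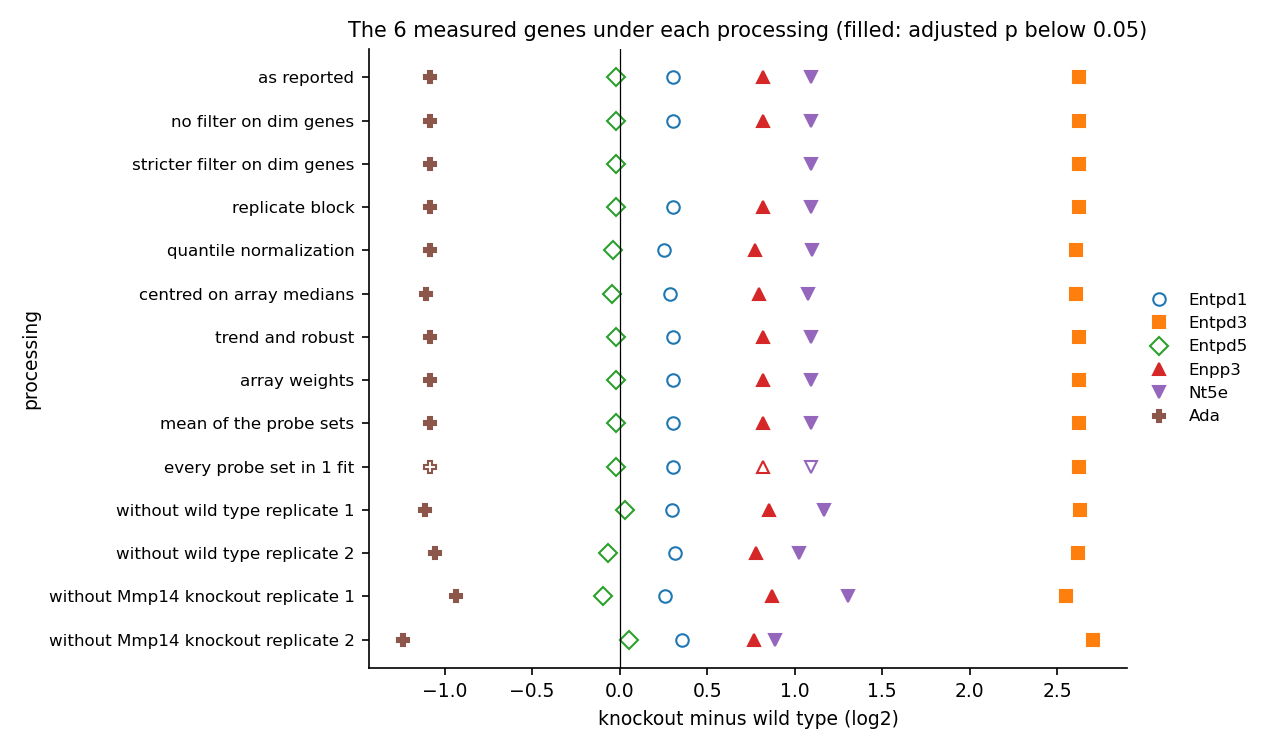
Knockout minus wild type difference in log2 (horizontal axis) of the 6 measured genes under the reported processing and 13 alternatives (rows), with filled symbols where the adjusted p was below 0.05. The order of the genes is the same in every row with all of them. Nt5e and Ada move most when a knockout array is left out, and the fit of every probe set leaves Entpd3 alone filled. Entpd1 and Enpp3 are absent under the stricter filter, which Entpd3 passes only through its knockout arrays.

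The genes whose deviations from the wild-type mean lay nearest to those of Entpd3 over the 4 arrays, by Euclidean distance in log2, were Tfap2a (0.21), Lbh (0.24) and Olfml2a (0.24). Their differences were 2.75, 2.60 and 2.53. For Nt5e they were Kctd4 (0.12), Kcnn3 (0.15) and Sh3tc2 (0.15), with differences of 1.08, 1.08 and 1.07. With 4 arrays in 2 groups, such nearness mostly restates the size of the difference between groups.

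Of other genes in or next to purinergic signalling, 100 were measured and 73 tested, in 7 lists that hold none of the set. The lists also hold genes induced by cyclic AMP and genes of phosphate handling, so not all of these genes are purinergic. Of the 73, 7 rose (9.59%, against 6.2% of all genes), 9 fell (12.3%, against 5.12%) and 57 did not pass, with a median of 0.0035. The lists were chosen with earlier results of these data known, so these shares and the calls below are a description and not a test. A rise and a pair of falls passed under every alternative run that tested them, those of Slc29a1 (higher) and of Alpl and P2ry14 (lower). The counts were 7 without knockout array 1 and 9 without wild-type array 2.

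**Figure D4:**
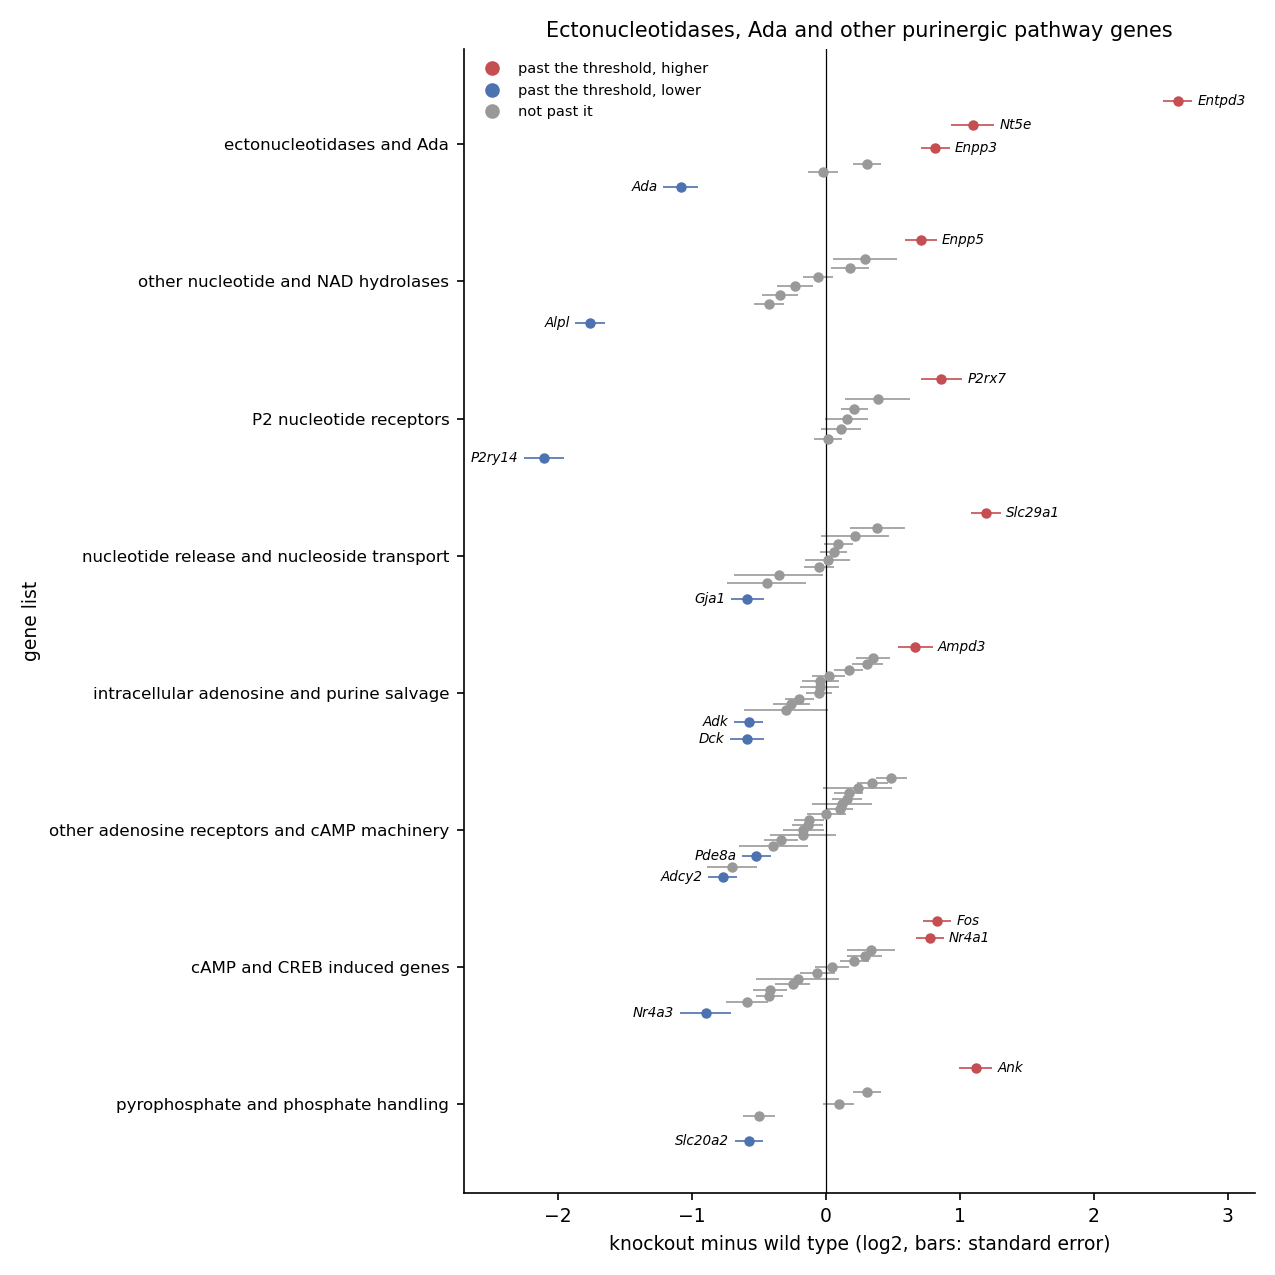
Knockout minus wild type difference in log2 (horizontal axis, bars are standard errors) of each tested gene, by list (rows), with the ectonucleotidases and Ada on top; red and blue mark genes past the threshold, grey those not past it. Entpd3 (2.63) is the highest point, the knockout signal of P2ry14 lay below the filter on dim genes, so the size of its fall is uncertain, and each list holds genes on both sides of 0.

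Among other nucleotide and NAD hydrolases, 1 of 8 tested genes rose, 1 fell and 6 did not pass (median −0.14). Alpl, the tissue-nonspecific alkaline phosphatase that cuts pyrophosphate and also AMP, was at 7.66 and 7.50 log2 in wild type and at 5.77 and 5.87 in knockout. It fell by 1.76 log2 (standard error 0.112, limma adjusted p = 0.00104, n = 2 in each group), and a second probe set gave −1.06. Enpp5 rose by 0.71 (limma adjusted p = 0.0165). The call was lost without wild-type array 2 (difference 0.70, adjusted p = 0.0575) or knockout array 1 (0.60, adjusted p = 0.0868).

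Among P2 receptors, which sense the nucleotides themselves, 1 of 7 tested genes rose, 1 fell and 5 did not pass (median 0.16). P2ry14, a receptor for UDP-sugars, was at 4.45 and 4.30 log2 in wild type and at 2.10 and 2.45 in knockout. It fell with a limma adjusted p = 0.00129, and its knockout mean lay below the filter on dim genes, so no fold is given. P2rx7, the ATP-gated channel, read 4.87 and 5.14 in wild type against 6.02 and 5.72 in knockout and rose by 0.86 (standard error 0.154, limma adjusted p = 0.0215). That call was lost without wild-type array 1 (difference 0.73, adjusted p = 0.064) or knockout array 1 (0.71, adjusted p = 0.0795).

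Among channels that release nucleotides and carriers of nucleosides, 1 of 10 tested genes rose, 1 fell and 8 did not pass (median 0.04). Slc29a1, the equilibrative transporter that carries adenosine across the plasma membrane, was at 6.48 and 6.37 log2 in wild type and at 7.69 and 7.56 in knockout. It rose by 1.20 (standard error 0.110, limma adjusted p = 0.00266, n = 2 in each group). Its second probe set was dim in all 4 arrays, from 1.27 to 1.47, and the mean of both probe sets gave a difference of 0.64. Gja1, which encodes connexin 43, fell by 0.59 (limma adjusted p = 0.036). The call was lost without wild-type array 1 (difference −0.61, adjusted p = 0.0791), wild-type array 2 (−0.56, adjusted p = 0.103) or knockout array 1 (−0.46, adjusted p = 0.177).

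Among intracellular adenosine and purine salvage genes, 1 of 13 rose, 2 fell and 10 did not pass (median −0.05). Adenosine kinase (Adk), which with Ada is the main route of adenosine removal inside cells, read 7.55 and 7.42 log2 in wild type against 6.95 and 6.87 in knockout. It fell by 0.58 (standard error 0.109, limma adjusted p = 0.0253). The call was lost without wild-type array 1 (difference −0.51, adjusted p = 0.0734), knockout array 1 (−0.62, adjusted p = 0.0892) or knockout array 2 (−0.53, adjusted p = 0.113). Deoxycytidine kinase (Dck) fell by 0.59 (limma adjusted p = 0.0375), a call lost without wild-type array 1, wild-type array 2 or knockout array 1 (differences −0.57, −0.61 and −0.46, adjusted p = 0.0973, 0.0925 and 0.182). The AMP deaminase gene Ampd3 rose by 0.67 (limma adjusted p = 0.0276), a call lost without wild-type array 2, knockout array 1 or knockout array 2 (differences 0.52, 0.69 and 0.65, adjusted p = 0.0739, 0.0892 and 0.0908).

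On the receptor side, Adora3 was the one adenosine receptor gene with a value, at 1.50 to 1.87 log2 in the 4 arrays, below the filter on dim genes and not tested. Of 17 tested genes of the cyclic AMP machinery 0 rose, 2 fell and 15 did not pass in limma (median −0.12), with 2 higher and 4 lower at an unadjusted p of 0.05. Adcy2, an adenylyl cyclase, was at 6.93 and 7.07 log2 in wild type and at 6.27 and 6.20 in knockout and fell by 0.77 (standard error 0.109, limma adjusted p = 0.0107). The phosphodiesterase gene Pde8a fell by 0.52 (limma adjusted p = 0.0353). The call was lost without wild-type array 2 (difference −0.44, adjusted p = 0.105), knockout array 1 (−0.52, adjusted p = 0.145) or knockout array 2 (−0.52, adjusted p = 0.126).

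Of 13 tested genes that cyclic AMP and CREB are known to induce, 2 rose, 1 fell and 10 did not pass (median −0.06). At an unadjusted p of 0.05 in limma, 2 were higher and 4 lower. The 4 were Nr4a3, Ptgs2 (−0.59), Sik1 (−0.42) and Dusp1 (−0.42). The transcription factor genes Fos (0.83, limma adjusted p = 0.00776) and Nr4a1 (0.78, limma adjusted p = 0.00873) rose. Nr4a3, a relative of Nr4a1, fell by 0.90 (limma adjusted p = 0.0378), a call lost without wild-type array 1, wild-type array 2 or knockout array 1 (differences −0.93, −0.86 and −0.61, adjusted p = 0.0867, 0.111 and 0.0842). Crem, a classical cyclic AMP target, had a difference of −0.25 and did not pass.

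Among 5 tested genes of pyrophosphate and phosphate handling, 1 rose, 1 fell and 3 did not pass (median 0.10). Ank, whose product governs the release of ATP and pyrophosphate from cells, was at 8.17 and 8.43 log2 in wild type and at 9.44 and 9.40 in knockout. It rose by 1.12 (standard error 0.126, limma adjusted p = 0.00491, n = 2 in each group). The phosphate carrier gene Slc20a2 fell by 0.57 (limma adjusted p = 0.0232), a call lost on leaving out any 1 array (differences −0.63 to −0.52, adjusted p = 0.0582 to 0.133).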

How the data were processed

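The data were 4 arrays, 2 wild type and 2 Mmp14 knockout. The authors deposited log2 intensities for 41345 probe sets, 1 per array. Of tools, limma and oligo are named in the submitters' processing notes, and the method of normalization is not given in the sources used here. Values ran from 0.43 to 12.2 log2, with array medians of 2.32 to 2.37. Gene symbols came from the supplied platform annotation: 23521 probe sets had 1 symbol, 1814 several and 16010 none listed, and 23328 matched RefSeq by gene identifier. The probe set of highest mean stood for a gene (22180 genes), and 12708 with a mean of at least 2.34 were tested.

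The comparison of knockout with wild type used limma 3.58.1 under R 4.3.3 (lmFit, eBayes, two-sided, no block, 2 residual degrees of freedom), with Benjamini and Hochberg adjustment over all genes and calls at 0.05. The prior SD was 0.12 log2, with 3.99 prior degrees of freedom. The fit was tested on simulated data. An exact permutation test of 2 arrays against 2 cannot go below 0.333.

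Named were Mmp14, the genes of the set, up to 3 called genes in each direction per pathway list (where there were none, the brightest 2), and the 3 nearest patterns to Entpd3 and Nt5e. Pathway genes were other nucleotide hydrolases, P2 receptors, nucleotide release and nucleoside transport, purine salvage, cyclic AMP machinery, genes induced by cyclic AMP, and pyrophosphate handling. The genes and lists were chosen with earlier results of these data known. Cells of stromal, leukocyte, lymphocyte, mast cell, endothelial, neural and epithelial type were checked by markers. The alternatives were the filter, a replicate block, normalization, the variance model, array weights, the choice of probe set and leaving out each array. The number of arrays limits the precision.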

Additional observations from a re-analysis of the deposited data

How the results depend on the processing

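The number of genes called fell from 1439 to 188 in a fit of every probe set, that of the ectonucleotidase set from 4 to 1 and that of the other pathway genes from 16 to 3. Leaving out 1 array gave 687 to 1131 genes, 4 to 4 of the set and 7 to 14 of the pathway. In the fit of every probe set, Nt5e, Enpp3 and Ada did not pass. There Ank, Adcy2, Fos and Nr4a1 lost their calls too (limma adjusted p = 0.0654, 0.0957, 0.0813 and 0.0861). These 4 were otherwise called under each alternative that tested them. The sign of Entpd5, which was not called, turned, and its value ran from −0.0938 to 0.0553, on leaving out single arrays. Same-numbered arrays did not deviate together (correlation −0.04), so the numbers were not taken as pairs; with the replicate block 1057 genes, 4 of the set and 12 of the pathway were called. Of 29 named genes under 13 alternatives, 310 of 369 values kept direction and call, 57 lost the call and 2 turned sign. Most of these genes were named for their call or pattern in this same contrast. Alternatives that change only the variance model, the block or the genes tested leave the difference itself unchanged. Much of this agreement was therefore fixed in advance. The stricter filter (4.76 log2) left out Entpd1 and Enpp3. Entpd3 passed it with a mean of 4.94 over the 4 arrays, from 3.63 in wild type and 6.25 in knockout. Its call under that filter therefore rests on the difference that chose the set.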

Other observations

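Markers of Schwann and neural cells had summed linear intensities of 45.7 and 35.7 in wild type and of 52.5 and 70 in knockout, over 5 measured genes. S100b, which cartilage cells also express, read 4.55 and 3.93 log2 in wild type against 4.98 and 5.54 in knockout, and Mbp 2.88 and 2.85 against 3.24 and 3.37. S100b was the brightest of the 5 in every array and so weighs most in these sums. Elavl4 was also higher in knockout (difference 0.21), while Tubb3 (−0.28) and Sox10 (−0.48) were lower. None of the 3 tested genes passed the threshold in limma, and 2 were higher at an unadjusted p of 0.05 (limma adjusted p = 0.0604 for S100b and 0.0501 for Mbp), and Sox10, the defining factor of the lineage, was under the filter on dim genes in all 4 arrays. Of 4 tested epithelial markers none passed in limma, and 0 did at an unadjusted p of 0.05, with differences of 0.0067 to 0.17, and the summed intensities of 7 endothelial markers were 25.6 and 27.4 in wild type against 28.2 and 26.5 in knockout.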
